A study of Homo sapiens with 24 samples.

Results

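The levels of 8 genes of regulated secretion were followed in Panc-1 cells that were induced to express an acinar transcription factor. They are the Rab GTPases RAB3A, RAB3B, RAB3D, RAB26, RAB27A, RAB27B and RAB8A, and HID1, which is not a Rab but acts in the formation of secretory granules. They were chosen by name, with earlier results of these data known, the Tet-MIST1 comparison among them, and make up 8 of the 14409 genes listed in any of the 3 tables. Their Tet-MIST1 values are therefore given as a description without a test. The other comparisons were tested across all genes on the assumption that they had no part in the choice. That assumption could not be checked, and the FDRs given for the 8 genes hold only under it. The Tet-One and Tet-MIST1 tables listed all 8, and the Tet-PTF1a table listed 7, without RAB3A, which was not analysed there.

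Panc-1 is a long-established human cell line derived from a ductal carcinoma of the pancreas. It was made to carry an empty doxycycline-inducible plasmid (Tet-One), the plasmid with a myc-tagged rat MIST1 open reading frame (Tet-MIST1) or the plasmid with a myc-tagged mouse PTF1a open reading frame (Tet-PTF1a). Each line gave 4 Control libraries without doxycycline and 4 Dox libraries after 72 h in 1 µg/ml doxycycline, 24 in all, with Tet-One and Tet-PTF1a at passage 32 and Tet-MIST1 at passage 33. All cells grew in serum depleted of tetracycline, and each line came from stable clones that were screened one by one, so that line and clone cannot be told apart. Polyadenylated RNA was read as paired ends, and the counts per library summed to between 17210609 and 43017608.

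Rab GTPases are molecular switches that sit on vesicle membranes in their GTP-bound form and recruit effectors that move, tether and dock the vesicle. In pancreatic acinar cells, whose zymogen granules wait under the apical membrane for a stimulus, RAB3D and RAB27B are found on the granules, and RAB26 acts in granule maturation. MIST1 and PTF1a are acinar bHLH factors that bind the E box (CANNTG) in DNA, and genes for granule Rabs are among the known targets of MIST1.

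Values are given as CPM, the counts scaled to the library's TMM-adjusted total, on one scale for all 24 libraries. Levels are compared between genes only as RPKM, the CPM per kilobase of exon. In the Tet-One Control libraries, RAB8A, which carries vesicles from the Golgi to the plasma membrane, had the highest mean level at 27.0 RPKM, followed by RAB26 at 11.4 RPKM and RAB3D at 5.77 RPKM. HID1 stood at 1.67 RPKM, RAB3B at 0.836 RPKM, RAB27A at 0.692 RPKM, RAB3A at 0.506 RPKM and RAB27B at 0.10 RPKM. RAB8A thus lay at percentile 79.2 of all genes on that scale and RAB27B at percentile 2.33. RAB3A, the Rab3 of neurons and endocrine cells, had 18 to 43 counts in each library of the Tet-One and Tet-MIST1 lines, and RAB27B had 18 to 40 counts there, so that both are measured with less precision than the rest. On the opposite strand, lncRNAs cover 1018 of the exonic bases of RAB8A, 906 of RAB3D and 341 of RAB27B, and MPV17L2 covers 148 of RAB3A. The use of strand in the counting is not given in the sources used here, so reads from those stretches could belong to either gene. Another lncRNA lies on the same strand as RAB3D and shares 49 of its exonic bases, which strand could not separate.

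**Figure D1:**
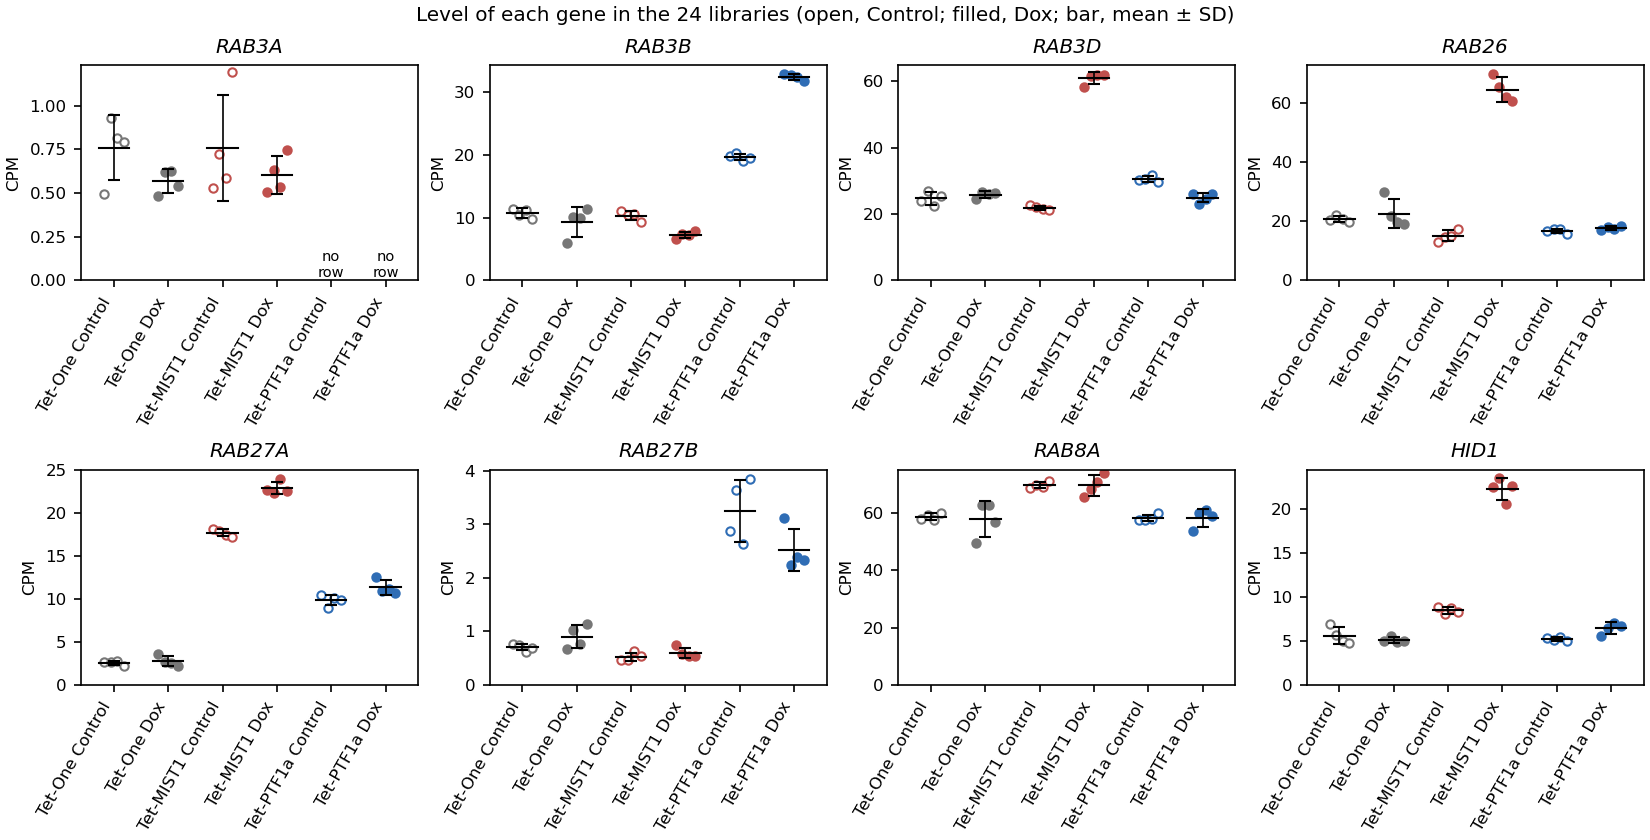
Level of each of the 8 genes in CPM (vertical axis, from 0) in the 6 groups, with open points for Control libraries, filled points for Dox libraries and bars for the mean ± SD of 4 libraries. RAB26, RAB3D and HID1 stand highest in Tet-MIST1 Dox and RAB3B in Tet-PTF1a Dox, whereas RAB8A lies between 49.5 and 74.1 CPM throughout.

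Induction of MIST1 went with the highest levels of RAB26, RAB3D and HID1 in the series. RAB26 had 13.1, 14.5, 15.2 and 17.5 CPM in the 4 Tet-MIST1 Control libraries and 70.0, 65.5, 61.9 and 60.8 CPM in the 4 Dox libraries. The Dox libraries lay far above the Control libraries, with a mean of 64.5 ± 4.14 against 15.1 ± 1.83 CPM (SD, n = 4) and a log2 fold change of 2.09 (SE 0.080), or 4.27-fold. Only 5 of the 13621 genes tested in that line had a higher log2 fold change. On the RPKM scale RAB26 went from 8.26 to 35.3 and was then the highest of the 8 genes, above RAB8A at 32.1 RPKM. The gene lies on chromosome 16 (hg19, 2198145 to 2204162, plus strand, 10 exon blocks in the tables), and its exons share no base with those of another gene in GENCODE. In these bulk libraries, more RNA in each cell and more cells with a high level cannot be told apart.

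RAB3D had 22.6, 21.97, 21.5 and 21.2 CPM in the Tet-MIST1 Control libraries and 58.2, 61.6, 61.8 and 61.9 CPM in the Dox libraries. Both groups were narrow and well apart, with means of 21.8 ± 0.593 and 60.9 ± 1.81 CPM (SD, n = 4) and a log2 fold change of 1.48 (SE 0.047), or 2.78-fold. RAB3D lies on chromosome 19 (hg19, 11432722 to 11450344, minus strand).

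HID1 had 8.84, 8.01, 8.66 and 8.28 CPM in the Tet-MIST1 Control libraries and 22.4, 23.5, 20.5 and 22.6 CPM in the Dox libraries. The mean went from 8.45 ± 0.374 to 22.3 ± 1.26 CPM (SD, n = 4), and the log2 fold change was 1.39 (SE 0.063). HID1 lies on chromosome 17 (hg19, 72946839 to 72968900, minus strand, 19 exon blocks). RAB26, RAB3D and HID1 held ranks 6, 19 and 23 from the top of the log2 fold changes of that line.

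RAB3B, a Rab3 of pituitary and epithelial cells, went the other way. It had 11.1, 10.4, 10.5 and 9.31 CPM in the Tet-MIST1 Control libraries and 6.65, 7.41, 7.19 and 7.86 CPM in the Dox libraries. Each Dox library lay below each Control library, with a log2 fold change of -0.51 (SE 0.076). RAB3B lies on chromosome 1 (hg19, 52373628 to 52456436, minus strand) and, with 12844 exonic bases, is the longest of the 8 in the tables.

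RAB27A, which carries melanosomes and lytic granules to the cell cortex, had 18.1, 17.9, 17.5 and 17.2 CPM in the Tet-MIST1 Control libraries and 22.7, 22.3, 23.9 and 22.5 CPM in the Dox libraries. These did not overlap, and the log2 fold change was 0.37 (SE 0.048). The remaining genes overlapped between Control and Dox. Their log2 fold changes were -0.007 (SE 0.048) for RAB8A, 0.20 (SE 0.19) for RAB27B and -0.32 (SE 0.26) for RAB3A. In this comparison, which was known when the genes were chosen, Control and Dox libraries did not overlap for 5 of the 8, against 26.8% of all 13621 genes.

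**Figure D2:**
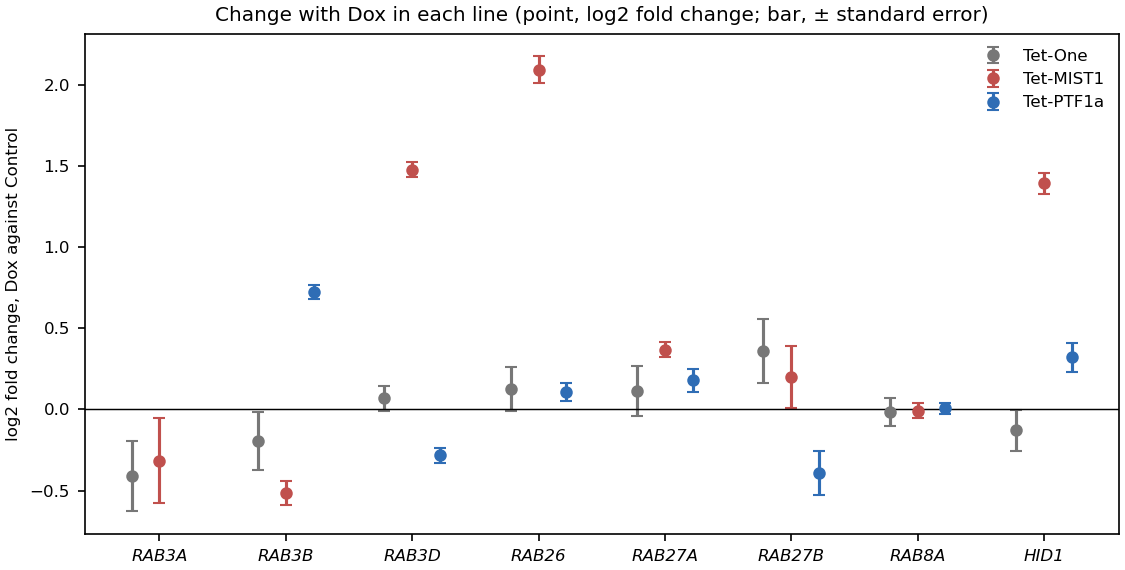
Log2 fold change of Dox against Control (vertical axis) for the 8 genes in Tet-One (grey), Tet-MIST1 (red) and Tet-PTF1a (blue), with bars of ± 1 standard error from edgeR. RAB26, RAB3D and HID1 lie between 1.39 and 2.09 in Tet-MIST1, and RAB3B and RAB3D lie on opposite sides of 0 in both induced lines, with signs exchanged.

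In the Tet-PTF1a line the paralogs RAB3B and RAB3D moved in the directions opposite to those seen with MIST1. RAB3B had 19.9, 20.3, 19.1 and 19.5 CPM in the Control libraries and 33.0, 32.8, 32.5 and 31.9 CPM in the Dox libraries. It was induced from 19.7 ± 0.529 to 32.5 ± 0.470 CPM (SD, n = 4), with a log2 fold change of 0.72 (SE 0.045, edgeR quasi-likelihood test, FDR = 3.16e-19). Every Dox library lay above every Control library, and this was the highest level of RAB3B in the 6 groups.

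RAB3D had 30.2, 30.6, 31.7 and 29.6 CPM in the Tet-PTF1a Control libraries and 26.1, 23.1, 24.4 and 25.9 CPM in the Dox libraries. It fell from 30.5 ± 0.901 to 24.9 ± 1.43 CPM (SD, n = 4), with a log2 fold change of -0.28 (SE 0.046, edgeR, FDR = 1.16e-06), again without overlap. RAB26 had 16.7, 17.4, 17.3 and 15.7 CPM in the Control libraries and 17.2, 18.2, 17.4 and 18.5 CPM in the Dox libraries. These overlapped, and the log2 fold change of RAB26 was 0.11 (SE 0.055, edgeR, FDR = 0.101), which does not show that the level stayed the same.

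HID1 rose in Tet-PTF1a from 5.33, 5.05, 5.46 and 5.00 CPM to 5.49, 6.49, 7.03 and 6.72 CPM. Its log2 fold change of 0.32 (SE 0.090, edgeR, FDR = 0.00255) stands beside 1.39 in Tet-MIST1, a difference that was not tested, and the lowest Dox library lay just above the highest Control library. The level in Tet-PTF1a Dox, 6.43 ± 0.665 CPM (SD, n = 4), stayed under all 4 Tet-MIST1 Control libraries.

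The Rab27 paralogs both passed the threshold in Tet-PTF1a, in opposite directions, but by small margins. RAB27A had 10.4, 8.95, 10.1 and 9.87 CPM in the Control libraries and 12.5, 10.9, 11.1 and 10.7 CPM in the Dox libraries, a log2 fold change of 0.18 (SE 0.070, edgeR, FDR = 0.0295). The call was lost without Control replicate 2 (log2 fold change 0.15, FDR = 0.0868), without Control replicate 4 (0.17, FDR = 0.0630) and without Dox replicate 1 (0.13, FDR = 0.138). RAB27B, the Rab27 of acinar and other exocrine cells, had 2.87, 3.64, 2.63 and 3.85 CPM in the Control libraries and 3.11, 2.24, 2.39 and 2.33 CPM in the Dox libraries. Of its Dox libraries, 3 lay below all Control libraries and Dox replicate 1 lay among them, with a log2 fold change of -0.39 (SE 0.137, edgeR, FDR = 0.0155). That call was lost without Control replicate 4 (-0.27, FDR = 0.144), without Dox replicate 2 (-0.35, FDR = 0.0546) and without Dox replicate 4 (-0.35, FDR = 0.0560), and both calls were lost with DESeq2 (FDR = 0.0728 for RAB27A and 0.0606 for RAB27B).

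RAB8A did not pass the threshold in Tet-PTF1a (log2 fold change 0.006, SE 0.035, edgeR, FDR = 0.899), with 57.6 to 60.2 CPM in the Control and 53.9 to 61.0 CPM in the Dox libraries. Of the 7 genes tested, 3 rose and 2 fell, 5 in all, where 48.2% of the 14051 genes tested in that line were called, 23.8% higher and 24.4% lower. Control and Dox libraries did not overlap for 4 of the 7, against 42.1% of all genes. The median log2 fold change of the 7 was 0.11, and that of all genes was 0.0014. The number called among so few genes was not tested against that share.

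In Tet-One, the line with the empty plasmid, none of the 8 genes was called by edgeR, and Control and Dox libraries overlapped for all 8, against 2.37% of all genes without overlap. The background was 0% of the 13426 genes tested, with 401 of these genes and none of the 8 at an unadjusted p under 0.05, and DESeq2 also called 0. One library, Dox replicate 1, stood apart from the others of its group, with an SD of log2 differences of 0.569 against 0.0915 to 0.232 for the other 23 libraries. RAB26 had 20.4, 22.1, 20.8 and 19.8 CPM in the Tet-One Control libraries and 29.8, 21.6, 19.9 and 19.2 CPM in the Dox libraries, where the high value is that of Dox replicate 1. RAB3B had 11.4, 10.5, 11.2 and 9.77 CPM and then 5.95, 10.0, 9.94 and 11.4 CPM, and the low value belongs to the same library. With that library the log2 fold change was 0.13 (SE 0.136) for RAB26 and -0.20 (SE 0.179) for RAB3B, and without it -0.03 (SE 0.061) and -0.03 (SE 0.076).

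The other genes ranged in Tet-One from a log2 fold change of -0.41 (SE 0.215) for RAB3A to 0.36 (SE 0.197) for RAB27B, both of them low in counts. RAB3D stood at 0.07 (SE 0.076) and HID1 at -0.13 (SE 0.124), with an edgeR FDR of 0.897 for each. RAB3D had 23.9, 26.8, 22.5 and 25.5 CPM in the Control libraries and 24.4, 26.7, 26.0 and 26.2 CPM in the Dox libraries. HID1 had 4.78 to 6.87 CPM and 4.82 to 5.50 CPM, so that its Dox libraries lay within the Control range.

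The responses of Tet-PTF1a and Tet-One were then compared directly, by testing the line-by-Dox interaction in 16 libraries, where 12.8% of the 13519 genes tested were called. RAB3B (log2 difference 0.92, SE 0.186, edgeR, FDR = 0.00315) and RAB3D (-0.36, SE 0.088, FDR = 0.0118) were called, 2 of 7 genes. HID1 (0.44, SE 0.151, FDR = 0.0700) and RAB27B (-0.74, SE 0.258, FDR = 0.0757) were not. Without Tet-One Dox replicate 1 the count was 4, with HID1 at 0.45 (FDR = 0.0220) and RAB27B at -0.86 (FDR = 0.0112), and it was also 4 without Tet-PTF1a Dox replicate 1 (HID1 0.50, FDR = 0.0427, and RAB27B -0.84, FDR = 0.0467). Without Tet-One Control replicate 4 it was 3, with HID1 at 0.51 (FDR = 0.0376). RAB26 (-0.03, FDR = 0.924), RAB27A (0.08, FDR = 0.809) and RAB8A (0.02, FDR = 0.927) were not called. With library size alone in place of TMM, RAB3D was no longer called (-0.30, FDR = 0.0559) and HID1 was (0.51, FDR = 0.0422).

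The upstream sequences of RAB3D and RAB3B are shown because these paralogs moved in opposite directions in both induced lines, and both factors bind E boxes. Sequences are those of RefSeq (GRCh38.p14), which held a window for 6 of the 8 genes, without RAB26 and HID1. Each of the printed windows has a single exact match in GRCh37, and is given there up to the base before the gene's start in the tables. The E box (CANNTG) is in capitals.
RAB3D, chr19:11450345-11450583, minus strand: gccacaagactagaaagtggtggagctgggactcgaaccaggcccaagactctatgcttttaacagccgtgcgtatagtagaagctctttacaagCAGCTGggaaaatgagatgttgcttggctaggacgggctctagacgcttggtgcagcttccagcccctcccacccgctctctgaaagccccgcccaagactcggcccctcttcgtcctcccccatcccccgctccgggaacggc
RAB3B, chr1:52456437-52456622, minus strand: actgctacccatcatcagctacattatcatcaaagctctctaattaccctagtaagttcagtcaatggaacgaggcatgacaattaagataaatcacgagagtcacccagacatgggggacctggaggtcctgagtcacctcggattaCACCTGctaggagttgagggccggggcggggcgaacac
The single E box of RAB3D reads CAGCTG and begins 155 bases before the RefSeq start, and that of RAB3B reads CACCTG and begins 102 bases before it. Within 250 bases before the start, 61.8% of the 35116 RefSeq windows hold a CANNTG, 13.99% a CAGCTG and 12.2% a CATCTG on either strand, both of the latter being forms of CANNTG. RAB3A had 3 E boxes, of which 1 was CATCTG, and RAB8A had 0. The 5 windows of RAB27A had 1 to 4, with 1 CAGCTG in each of windows 3 and 4 and 1 CATCTG in window 5. The 2 windows of RAB27B had 0 and 1. These counts describe the letters in the windows and not binding.

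Because RAB3B and RAB3D moved apart, their balance shifted. RAB3D made up 86.4 ± 0.607% of the summed RPKM of RAB3D and RAB3B in Tet-MIST1 Control and 96.2 ± 0.172% in Tet-MIST1 Dox (SD, n = 4). In Tet-PTF1a the share went from 82.3 ± 0.684% to 69.7 ± 1.34%, and in Tet-One from 87.3 ± 1.496% to 89.3 ± 2.20%. The lowest Control and highest Dox library in Tet-PTF1a were 81.9% and 70.9%, and the Tet-One groups overlapped. For the Rab27 paralogs, RAB27A made up 98.5 ± 0.261% and 98.6 ± 0.228% of their sum in Tet-MIST1 Control and Dox, and 85.1 ± 2.89% and 89.5 ± 0.773% in Tet-PTF1a. The summed RPKM of the 6 Rabs other than RAB3A went from 51.1 ± 1.22 to 88.5 ± 0.310 in Tet-MIST1, from 47.8 ± 0.290 to 48.4 ± 1.14 in Tet-PTF1a and from 45.8 ± 1.14 to 46.7 ± 1.79 in Tet-One.

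**Figure D3:**
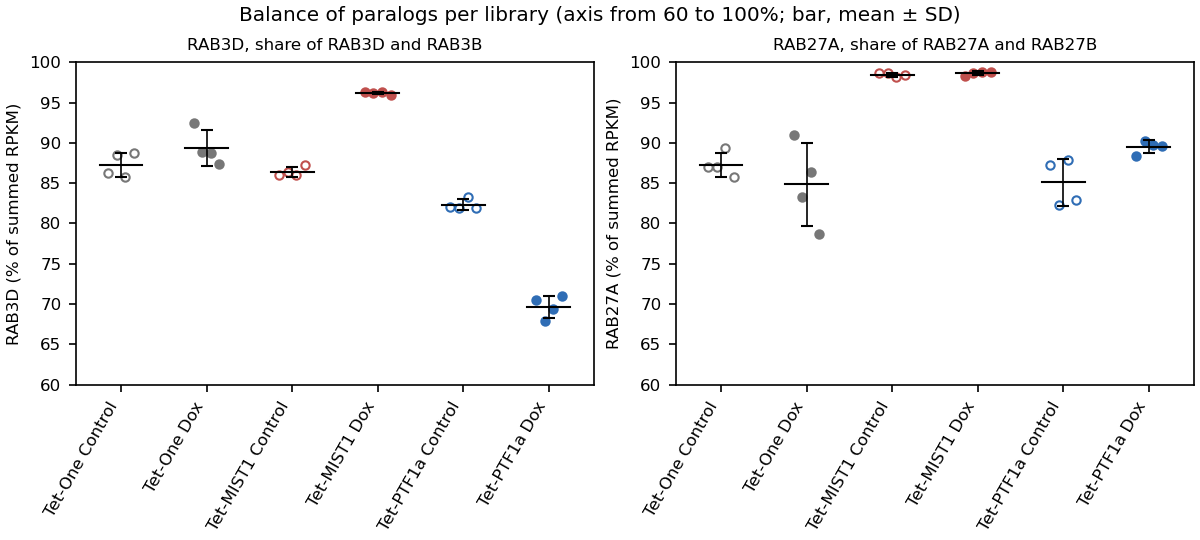
RAB3D as a percentage of the summed RPKM of RAB3D and RAB3B (left) and RAB27A as a percentage of that of RAB27A and RAB27B (right), per library, on an axis from 60 to 100%, with bars for the mean ± SD of 4 libraries. The RAB3D share is highest in Tet-MIST1 Dox at 96.2% and lowest in Tet-PTF1a Dox at 69.7%.

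The lines also differed before induction. Line and clone cannot be told apart, so the FDRs below reflect the spread between libraries of a line and not between clones. In Tet-PTF1a Control against Tet-One Control, where 79.7% of 13442 genes were called (39.5% higher and 40.2% lower), 5 of the 7 genes were called, 4 higher and 1 lower. RAB27A had 2.66, 2.64, 2.75 and 2.20 CPM in Tet-One Control and was 1.94 higher on the log2 scale in Tet-PTF1a Control (SE 0.085, edgeR, FDR = 3.34e-12). RAB27B was 2.19 higher (SE 0.160, FDR = 1.64e-09), RAB3B 0.86 higher (SE 0.058, FDR = 5.84e-10) and RAB3D 0.29 higher (SE 0.055, FDR = 0.000131). RAB26 was lower, at -0.33 (SE 0.054, FDR = 2.67e-05), and RAB8A (-0.02, FDR = 0.529) and HID1 (-0.11, FDR = 0.346) were not called.

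The Tet-MIST1 Control level of RAB27A was higher still, at 17.2 to 18.1 CPM, and RAB27B stood there at 0.453 to 0.632 CPM. Across the 6 groups the order of RAB27A was Tet-MIST1 Dox, Tet-MIST1 Control, Tet-PTF1a Dox, Tet-PTF1a Control and then both Tet-One groups, and only the last 2 overlapped. For RAB26 and RAB3D the top group, Tet-MIST1 Dox, stood clear of the next. RAB26 came next in Tet-One Dox at 22.6 CPM and RAB3D in Tet-PTF1a Control at 30.5 CPM. HID1 was highest in both Tet-MIST1 groups, and its other 4 groups, between 5.07 and 6.43 CPM, each overlapped with the next in order.

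The genes whose pattern over the 6 groups was nearest to RAB26, by the root mean square difference of centred mean log2 CPM among 12974 genes, were C15orf65 (0.29), RAB3D (0.29) and ATG4A (0.30). Nearest to RAB3D were SLC43A1 (0.13), ANKDD1A (0.21) and ATG4C (0.23), and nearest to HID1 were GRK4 (0.18), RPS27L (0.20) and METTL21B (0.20). ATG4A and ATG4C are proteases of autophagosome formation, and RPS27L is a ribosomal protein homologue. These distances rest on 6 group means that share libraries and carry no test.

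Among the other Rab GTPases, none moved as far in Tet-MIST1 as RAB26, RAB3D or HID1. These 3 were chosen with that comparison known, so the contrast is only a description. Of 44 tested there, 4 rose and 3 fell, 15.9% against 20.6% of all 13621 genes, with log2 fold changes between -0.50 and 0.33 over the 44. The count of 7 was 2 without Control replicate 1 or 3, 3 without Dox replicate 3 and 4 without Control replicate 2 or 4 or Dox replicate 4. RAB8B, the paralog of RAB8A, fell in Tet-MIST1 (log2 fold change -0.29, SE 0.056, edgeR, FDR = 0.00436) and is named for that relation, after its value was seen. In Tet-PTF1a, 22 of 45 were called, 12 up and 10 down, 48.9% against 48.2% of all genes. RAB37, a Rab of secretory granules in mast cells, rose by 1.25 on the log2 scale (SE 0.252, FDR = 4.67e-05) from a mean of 0.489 CPM, and RAB17, an epithelial Rab of transcytosis, by 0.89 (SE 0.137, FDR = 3.33e-07). In Tet-One 0 of 44 were called by edgeR or DESeq2, and 0 had an unadjusted p under 0.05.

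**Figure D4:**
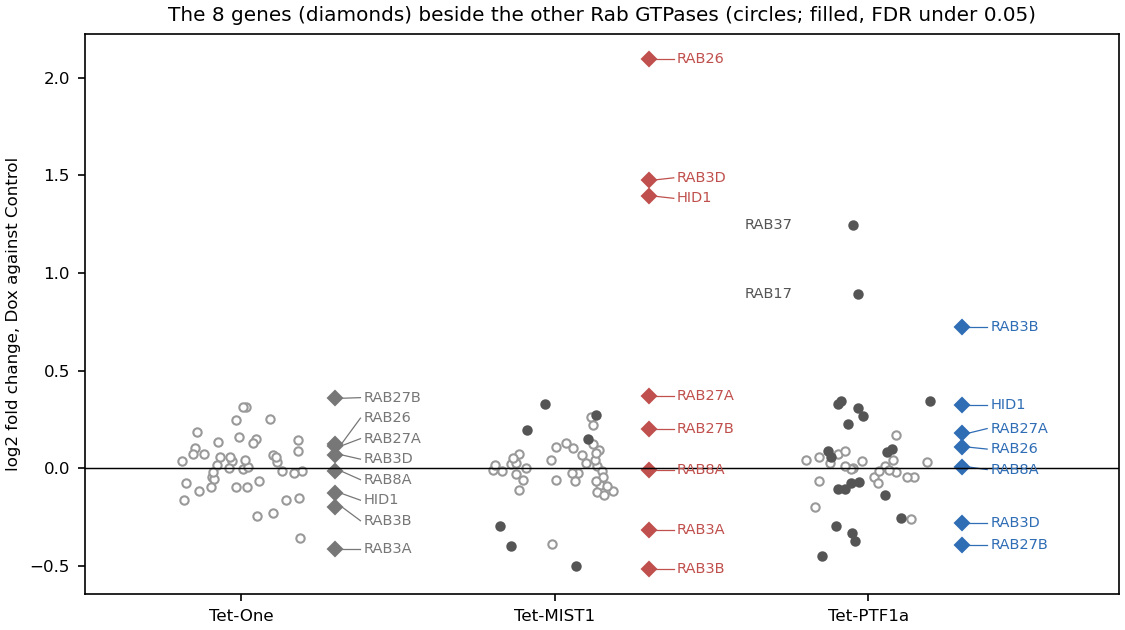
Log2 fold change of Dox against Control (vertical axis) in each line for the 8 genes (diamonds, named) and for the other Rab GTPases tested (circles, filled where the edgeR FDR was under 0.05). In Tet-MIST1 the circles lie between -0.50 and 0.33, below RAB26, RAB3D and HID1, and in Tet-PTF1a RAB37 (1.25) and RAB17 (0.89) lie above RAB3B (0.72).

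The proteins that act with these Rabs were read from lists written from general knowledge, but with earlier results of these data known. The shares called in these lists were not tested against those of all genes. Of the regulators of Rab3, Rab8 and Rab27, such as the exchange factors and GTPase-activating proteins that switch them, 2 rose and 2 fell of 15 tested in each induced line, 26.7% against 48.2% of all genes in Tet-PTF1a and 20.6% in Tet-MIST1. TBC1D30, a GTPase-activating protein for RAB8A, rose in Tet-MIST1 (log2 fold change 0.33, SE 0.050, FDR = 0.00102). In Tet-PTF1a the regulators lay between -0.31 and 0.14, with a median of 0.0006 against 0.0014 for all genes.

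Of the effectors, 10 of 14 were called in Tet-PTF1a, 5 in each direction, 71.4% against 48.2% of all genes. SYTL2 and SYTL4, synaptotagmin-like proteins that bind RAB27 on granules, rose by 0.86 (SE 0.023, FDR = 1.60e-34) and 0.97 (SE 0.175, FDR = 7.26e-06) on the log2 scale. RPH3AL, which binds RAB3 and RAB27 on granules, rose by 0.52 (SE 0.127, FDR = 0.000661), and RIMS1, a RAB3-binding scaffold of synaptic release sites, rose by 0.54 (SE 0.210, FDR = 0.0300). MYRIP and MLPH, which link RAB27A to myosin motors, fell by 1.33 (SE 0.194, FDR = 1.00e-07) and 0.52 (SE 0.055, FDR = 2.70e-11). In Tet-MIST1, 6 of 11 effectors were called, 2 up and 4 down, 54.5% against 20.6% of all genes, with log2 fold changes between -0.48 and 0.36. RPH3AL was the lowest of these (-0.48, SE 0.080, FDR = 0.00209), opposite in sign to its change in Tet-PTF1a. SYTL2 (-0.15), MICALL1 (-0.19), SYTL1 (0.36) and OPTN (0.21) also had signs opposite to those in Tet-PTF1a, while ATG16L1 fell in both lines. The differences between these lines were not tested.

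Of the exocytic fusion machinery, which drives and times membrane fusion, 10 of 22 were called in Tet-PTF1a (6 up, 4 down), 45.5% against 48.2% of all genes. In Tet-MIST1 4 of 21 were called (all up, with log2 fold changes of 0.14 to 0.32), 19.0% against 20.6%, so that both shares were near those of all genes. SYT7, a calcium sensor of regulated exocytosis, rose in Tet-PTF1a by 1.35 (SE 0.076, FDR = 6.00e-21), and UNC13A, which primes vesicles, fell by 0.67 (SE 0.113, FDR = 1.89e-06). The STXBP2 gene, whose product guides syntaxin in non-neuronal cells, rose in Tet-MIST1 by 0.32 (SE 0.051, FDR = 0.00151). Of the 9 exocyst subunits, which tether vesicles and bind RAB8 through EXOC6, 5 were called in Tet-PTF1a, 55.6% against 48.2% of all genes, with the 9 between -0.16 and 0.21. In Tet-MIST1 0 were called by edgeR, with 3 at an unadjusted p under 0.05 and 1 called by DESeq2.

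Of the genes of granule formation and content, the list nearest to HID1 in role, 7 of 15 were called in Tet-PTF1a (5 up, 2 down), 46.7% against 48.2% of all genes, and 3 of 16 in Tet-MIST1 (all up), 18.8% against 20.6%. SCG3 and SCG2, granins packed into dense-core granules, rose in Tet-PTF1a by 1.21 (SE 0.107, FDR = 9.21e-14) and 1.02 (SE 0.090, FDR = 8.38e-14), and CPE, a prohormone-processing enzyme, by 0.53 (SE 0.076, FDR = 6.10e-08). In Tet-MIST1 the largest was ICA1 at 0.36 (SE 0.079, FDR = 0.00904), under the 1.39 of HID1, which was chosen with that comparison known. None of the genes of these 5 lists that were tested in Tet-One was called there by edgeR or DESeq2, where 1 gene of the fusion machinery and 2 of the granule list had an unadjusted p under 0.05.

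Of the listed genes named above, the Tet-PTF1a response differed from that of Tet-One for SYT7 (log2 difference 1.29, edgeR, FDR = 0.000314), SYTL2 (0.96, FDR = 1.15e-08), MLPH (-0.53, FDR = 0.000477), RPH3AL (0.57, FDR = 0.0364) and RAB17 (0.84, FDR = 0.0111). In the granule, fusion and exocyst lists it also differed for 6 genes that changed by less than 0.5 on the log2 scale in Tet-PTF1a and are named after their values were seen. The difference was negative for PCSK1N (-1.32, FDR = 0.0126), VGF (-0.69, FDR = 0.0173) and CPLX1 (-0.67, FDR = 0.00512), and positive for PAM (0.24, FDR = 0.0179), NAPG (0.24, FDR = 0.0188) and EXOC6 (0.22, FDR = 0.0374). In Tet-PTF1a the log2 fold changes of PCSK1N, VGF and CPLX1 were only -0.20, -0.30 and -0.24. Most of each of these differences thus lay on the side of Tet-One, whose Dox replicate 1 stood apart. No value without that library is given for the 6 genes. Over all genes tested, 12.8% were called in this comparison. Of the other Rab GTPases, 9 of 45 were called (20%), 6 with a positive and 3 with a negative difference. RAB17 and RAB37 are among these 9, and the rest changed by less than 0.5 on the log2 scale in Tet-PTF1a. That share was not tested against the share of all genes. The difference was not called for CPE (FDR = 0.0608), SYTL4 (FDR = 0.241) or UNC13A (FDR = 0.258). RAB37, SCG3, SCG2 and MYRIP did not pass the filter on low counts in Tet-One and entered the interaction only together with the Tet-PTF1a libraries. RAB37 (log2 difference 1.76, edgeR, FDR = 0.00823) and SCG3 (1.17, FDR = 0.000845) were called there. SCG2 (0.66, FDR = 0.196) and MYRIP (-1.33, FDR = 0.122) were not. The low counts in Tet-One limit what these differences show. For RIMS1 no difference was obtained.

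**Figure D5:**
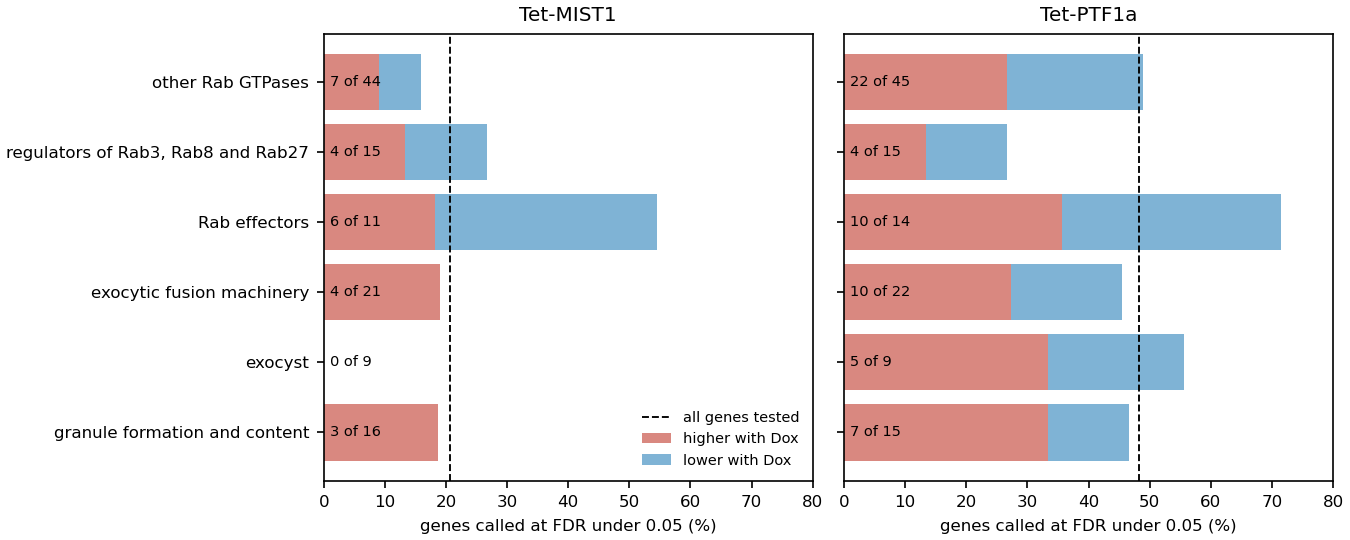
Share of each list that was called at an FDR under 0.05 (horizontal axis, in percent) in Tet-MIST1 (left) and Tet-PTF1a (right), split into genes higher (red) and lower (blue) with Dox, with the number called of the number tested and a dashed line for all genes tested. Of the lists drawn, the effectors stand farthest above the dashed line in both lines, at 54.5% and 71.4%, and in Tet-MIST1 0 of 9 exocyst genes were called.

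Markers were read beside these values. The epithelial keratins KRT8 and KRT18 had group means of at least 718 and 505 CPM. The mean of KRT19 ranged from 69.2 CPM in Tet-MIST1 Control to 953 CPM in Tet-One Dox. That of KRT7 was low, from 1.40 CPM in Tet-PTF1a Control to 5.57 CPM in Tet-MIST1 Dox. Of 8 acinar secretory genes only PRSS1 was listed, in the Tet-PTF1a table alone, where it went from 1 to 4 counts to 49 to 114 counts. KRT8, KRT18 and KRT19 fell in Tet-PTF1a by 1.30, 1.1 and 1.07 on the log2 scale while KRT7 rose by 1.69, and their part in the Rab changes was not tested. None of the 4 keratins was called in Tet-MIST1 or Tet-One by edgeR or DESeq2, with 2 and 1 at an unadjusted p under 0.05. Of 4 immune and stromal markers only COL1A1 was listed. It fell in Tet-PTF1a from 148.7 to 62.4 CPM (log2 fold change -1.25, edgeR, FDR = 2.66e-37), by more than any of the 7 genes tested there, and its response differed from that in Tet-One (log2 difference -1.18, FDR = 2.25e-05). It was not called in Tet-MIST1 or Tet-One, and its part in the Rab changes was not tested. The human PTF1A locus had 0 to 2 counts in Tet-PTF1a Control and 53 to 168 counts in Tet-PTF1a Dox, where the induced gene is the mouse one. For MIST1 (BHLHA15) no row was used in the Tet-MIST1 table, so induction itself was not checked there. In Tet-PTF1a, BHLHA15 had 2 to 16 counts in the Control and 12 to 22 counts in the Dox libraries. Its means there were 0.263 ± 0.164 and 0.652 ± 0.0437 CPM (SD), and no test of this low level is given.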

How the data were processed

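The libraries were 4 Control and 4 Dox of polyadenylated RNA from each of the Tet-One, Tet-MIST1 and Tet-PTF1a Panc-1 lines. Reads were mapped by the authors with TopHat (hg19), a gene had to exceed 0.5 CPM in 4 or more samples, and raw counts per gene were deposited, line by line. The submitters' processing notes also name HTSeq, DESeq and edgeR, without roles. The deposited CPM are a scaled signal (counts per scaled library total) and served only as an alternative. The deposited log2 fold changes and p-values of the authors' own comparisons were not used. No other column of sample values was present (0).

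Dox and Control counts were compared within each line in R 4.3.3 by edgeR 4.0.16 (robust quasi-likelihood test with TMM scaling and Benjamini-Hochberg adjustment, two-sided, FDR under 0.05, no limit on fold), over genes above 0.5 CPM in at least 4 libraries. In every table, the 2 rows that shared a gene name were dropped. The log2 fold changes use a prior count of 0.125, and the SE is the log2 fold change divided by the square root of the F statistic. CPM and RPKM use TMM over the 13519 genes in all 3 tables. Replicates were compared in 36 pairs, and all differed by more than sampling noise (chi-square 1.38 to 236 per degree of freedom). Depth was 17210609 to 43017608 counts per library.

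The 8 genes and all lists were chosen with earlier results of these data known. Genes by name are the 8, the listed genes called whose log2 fold change was 0.5 or more in size (at most 6 a list and line), and the 3 genes nearest in pattern to RAB26, RAB3D and HID1 (mean above 1 CPM, log2 offset 0.25 CPM). TBC1D30, STXBP2, ICA1, RAB8B, PCSK1N, VGF, CPLX1, PAM, NAPG and EXOC6 were named outside that rule, after their values were seen. So were SYTL1, OPTN, MICALL1, ATG16L1, the markers, and RPH3AL and SYTL2 in Tet-MIST1. The alternatives were DESeq2 1.42.0, library size, the likelihood ratio test, other filters (none, or 10 counts in every library), a replicate block, 1 fit over 24 libraries, and each library left out. The main edgeR fit and DESeq2 were tried on simulated data for each line. These had the same spread in every line and no library that stood apart, unlike the real libraries.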

Additional observations from a re-analysis of the deposited data

Results flagged for a closer look

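Among the 46 groups of 4 libraries, 2 held a library far from the other 3 by Dixon's test, where chance gives about 1 in 20. RAB3D had 58.2 CPM in Tet-MIST1 Dox replicate 1 against 61.6 to 61.9 CPM in the other 3. RAB8A had 60.2 CPM in Tet-PTF1a Control replicate 4 against 57.6 to 58.0 CPM.

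The responses to Dox differed between Tet-PTF1a and Tet-One by a test of the interaction for RAB3B, by 0.92 on the log2 scale, and for RAB3D, by -0.36. Other differences were not tested and are listed because all 4 Dox libraries lay on one side of the Control mean in one line and on the other side in the other. The log2 response in Tet-MIST1 minus that in Tet-PTF1a was -1.24 for RAB3B, 1.76 for RAB3D and 0.59 for RAB27B. The log2 response of HID1 in Tet-MIST1 was 1.52 above that in Tet-One.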

How the results depend on the processing

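Calls of RAB3B, RAB3D and HID1 in Tet-PTF1a held under each of the 7 other fits and with each library left out. The number of the 7 genes called there, 5, was 3 with DESeq2, 3 with all 24 libraries in one fit, 6 with library size alone, and 3 to 5 with 1 library left out (3 without Control replicate 4). In the interaction with Tet-One, 2 genes were called, 4 with all 24 libraries in one fit and 2 to 4 with 1 library left out. Of the other Rab GTPases, 22 were called in Tet-PTF1a, 10 with all 24 libraries in one fit and 17 to 20 with 1 left out, and 7 were called in Tet-MIST1, 3 with all 24 in one fit and 2 to 10 with 1 left out. The cause of these shifts was not tested.

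No effect shared by same-numbered Control and Dox libraries stood out. Their deviations correlated at -0.307 to 0.020 in Tet-MIST1, -0.298 to 0.248 in Tet-One and -0.022 to 0.041 in Tet-PTF1a. Whether same-numbered cultures were handled together cannot be read from these values. With the number as a block, the count of other Rab GTPases called in Tet-MIST1 was 2, and the log2 fold change of RAB8A in Tet-PTF1a was -0.00076.

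Signs changed only for differences that were not called, or not tested, as for RAB8A in Tet-MIST1 (-0.035 to 0.027 with 1 library left out). With library size alone, the interaction of RAB26 was 0.042 and the Control difference of RAB8A 0.063. With 1 library left out, RAB8A ranged from -0.011 to 0.037 in Tet-PTF1a, from -0.060 to 0.055 in Tet-One and from -0.044 to 0.065 in the interaction, RAB26 from -0.034 to 0.19 in Tet-One and from -0.10 to 0.14 in the interaction, RAB27A from -0.032 to 0.20 and from -0.0073 to 0.22 in these, and the Control difference of HID1 from -0.18 to 0.0035. The deposited CPM gave group means 0.978 to 1.03 times those reported.

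Counts of 18 to 43 limit what can be said of RAB3A and, outside Tet-PTF1a, of RAB27B. The biological coefficient of variation, the square root of edgeR's common dispersion, was 14.4% in Tet-One. It was 2.8% in Tet-PTF1a and 6.58% in Tet-MIST1, so that smaller changes could pass in these 2 lines. The Tet-One value includes Dox replicate 1, which stood apart, and no value without that library is given.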
